A study of Mus musculus with 20 samples.

Results

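The comparison described here sets RNA of cardiac fibroblasts sorted at day 7 after myocardial infarction (MI) against RNA of the same lineage sorted at day 3. Its members are 4 of the 20 samples of the series: 2 RNA libraries per time, taken by their time labels, with all genes of the count table considered. In every group, mouse heart cells carrying a heritable eGFP mark of the Tcf21 lineage were sorted. The mark was switched on by tamoxifen, given at 75 mg/kg per day on 5 days, which activates a MerCreMer recombinase. The Tcf21 protein is a transcription factor found in fibroblasts of the resting heart, and the mark is inherited by all descendants of a labelled cell whatever they become. The labels do not give the strain, age or sex of the mice, how long before infarction tamoxifen was given, or whether a library came from 1 heart or from several. RNA came from 10000 sorted cells per library. Libraries of uninjured hearts and of hearts at week 2 and week 4 after MI, 2 each with the same mark and tamoxifen, shared the estimate of spread and are otherwise given only as levels.

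After an infarct, dead heart muscle is replaced by a scar that fibroblasts build. Resident fibroblasts first divide and spread into the damaged area, and the enlarged population then secretes collagens, elastic fibre proteins and adhesive glycoproteins. A dividing cell copies its DNA in S phase, separates the copies in mitosis and makes extra ribosomes, and genes of these steps are commonly read as marks of proliferation. The days compared are widely used to sample the proliferative stage and the matrix-making stage of this response.

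The 4 libraries held 16986664 to 19442596 counts, with 1.07 to 1.43% of them from mitochondrially encoded genes. Genes that define fibroblasts were abundant at both times. Levels are given as CPM, counts scaled to the size of the library. Those of Dcn, the collagen-binding proteoglycan decorin, were 8760 and 5120 at day 3 and 7860 and 6870 at day 7, and Pdgfra, a growth factor receptor of fibroblasts, was at 424 and 328 and then at 254 and 147. Tcf21 itself was low, at 10.7 and 7.82 CPM and then 12 and 9.53 CPM. Reads from Y-linked genes were present in day 3 replicate 1 (0.0124% of counts) and day 7 replicate 2 (0.0252%) and close to 0 in the other two libraries, so the 2 libraries of a time did not come from the same animals. Across genes, log CPM correlated at 0.901 between the day 3 libraries and 0.882 between the day 7 libraries, and at 0.845 to 0.891 between the times, where genes are not independent replicates.

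Of 14968 genes tested with edgeR's quasi-likelihood test, 206 (1.38%) passed a Benjamini-Hochberg adjusted p of 0.05, 123 higher at day 7 (0.822%) and 83 lower (0.555%). At an unadjusted p under 0.05 there were 2261. Both day 7 libraries lay above both day 3 libraries for 3141 genes (21% of those tested) and below for 3554 (23.7%), and the median log2 fold change over all tested genes was 0. Counts of list members with both day 7 libraries highest or lowest, given below, are to be read beside these shares. Of the called genes, 121 rose and 78 fell at least 2-fold, and in all 206 the libraries of the 2 times did not overlap. The number of calls rested on single libraries. It was 19 (12 higher, 7 lower) without day 3 replicate 2, 3 (all higher) without day 7 replicate 2, 119 (71 and 48) without day 7 replicate 1, 332 (261 and 71) without day 3 replicate 1, and 124 and 121 without week 4 replicate 1 and without week 4 replicate 2. Without day 7 replicate 2 the calls left were Clu, Pecam1 and Gpc3, so every other call named here was lost without that library. With a term for Y-linked reads 90 rose and 50 fell. The other tools called more genes. On the same genes limma-voom called 419 (165 higher, 254 lower). DESeq2 called 974 (515 higher, 459 lower) of 18265 genes tested without the filter on low counts, where edgeR called 814. Of the 206, 175 were called by all 3 tools in the same direction. Every one of the 206 kept its direction in each of the 18 alternative fits, although only Clu and Pecam1 passed in each of the 10 fits that left out 1 library. Fitted to the 4 libraries alone, 162 genes rose and 165 fell.

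**Figure D1:**
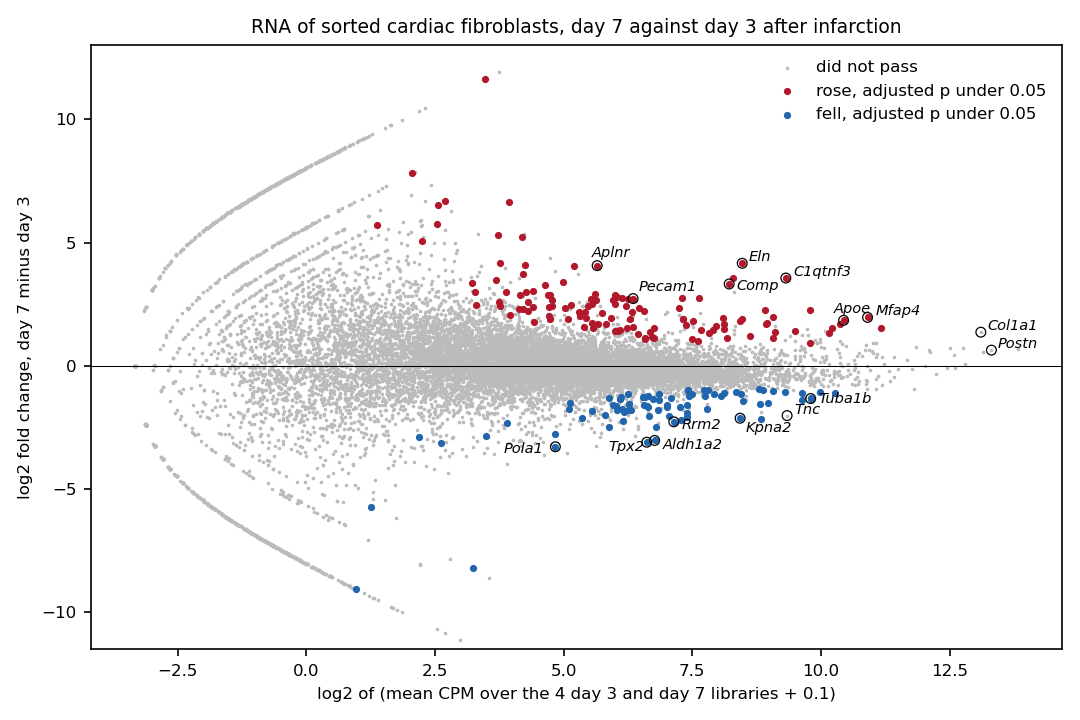
Each point is 1 of the 14968 genes tested, placed by its mean level (x axis, log2 of mean CPM + 0.1 over the 4 libraries) and by its log2 fold change at day 7 against day 3 (y axis). Red points are the 123 genes that rose and blue points the 83 that fell at an adjusted p of 0.05, and circled genes are described in the text: Eln, C1qtnf3 and Comp lie far above 0, Tpx2, Pola1 and Aldh1a2 far below, while Col1a1, Postn and Tnc did not pass.

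Genes of DNA replication were lower at day 7. Of 38 listed S phase genes tested, 5 fell, none rose, and 37 had both day 7 libraries below both day 3 libraries, with a median log2 fold change of -1.76. Rrm2, which encodes a subunit of the enzyme that makes deoxynucleotides, was at 211 and 256 CPM at day 3 and 43.6 and 53.0 CPM at day 7. It fell by 2.28 on the log2 scale (SE 0.27, adjusted p = 0.0064), and both day 3 libraries stood far above both day 7 libraries. Its partner subunit Rrm1 went from 327 and 352 CPM to 97.5 and 101 CPM and fell by 1.77 (SE 0.23, adjusted p = 0.0064). Pola1, the catalytic subunit of the polymerase that starts new DNA strands, was at 60.0 and 43.5 CPM and then at 4.68 and 5.91 CPM. Its change of -3.29 (SE 0.44, adjusted p = 0.0064) was the largest fall among the genes named by level and size, and its day 7 level lay below that of uninjured hearts (30.8 and 23.9 CPM). Rfc4, part of the loader of the sliding clamp, fell by 2.12 (SE 0.38, adjusted p = 0.019), and Pclaf, a factor that binds the clamp, by 2.5 (SE 0.52, adjusted p = 0.039). Mcm5, a subunit of the replicative helicase, had 76.8 and 87.4 CPM at day 3 and 19.9 and 17.8 CPM at day 7 and did not pass (log2 fold change -2.12, adjusted p = 0.062). Without day 7 replicate 2 none of the 5 calls remained, and their highest adjusted p without 1 library lay between 0.062 and 0.25. In bulk RNA, fewer cells of a kind and less RNA per cell cannot be told apart.

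Genes of mitosis were lower as a group as well. All 40 listed members tested had both day 7 libraries below both day 3 libraries and negative log2 fold changes, from -3.54 for Bub1 to -1.44 for Kif4 with a median of -2.12, yet only 4 passed the test. Tpx2, which builds the spindle around chromosomes, was at 151 and 200 CPM at day 3 and 18.4 and 22.4 CPM at day 7, a change of -3.10 (SE 0.54, adjusted p = 0.019). Top2a, the topoisomerase that untangles sister chromosomes, went from 207 and 305 CPM to 53.9 and 58.4 CPM, a change of -2.19 (SE 0.44, adjusted p = 0.035). Cenpe, a motor protein of the kinetochore, changed by -2.26 (SE 0.48, adjusted p = 0.043) and Mad2l1, a part of the spindle checkpoint, by -1.87 (SE 0.31, adjusted p = 0.016). The proliferation marks in widest use did not pass. Mki67 was at 113 and 115 CPM and then at 24.7 and 50.2 CPM (log2 fold change -1.61, SE 1.24, adjusted p = 0.58), and Cdk1, the kinase that drives entry into mitosis, at 133 and 179 CPM and then at 40.2 and 44.7 CPM (-1.87, SE 0.96, adjusted p = 0.40). Ccnb1, the cyclin partner of Cdk1, had 232 and 253 CPM and then 47.2 and 51.9 CPM (-2.29, SE 1.25, adjusted p = 0.43). The libraries of uninjured hearts, which share the estimate of spread, differed widely in Ccnb1 (10.4 and 0.0536 CPM) and Cdk1 (4.74 and 0.107 CPM). In the fit of the 4 libraries alone, adjusted p-values were 0.043 for Mki67, 0.0063 for Cdk1 and 0.0019 for Ccnb1, and that fit called 33 of the 40 mitosis genes and 18 of the 38 S phase genes lower. limma-voom called 33 and 22 of them lower and DESeq2 16 and 25. Without day 3 replicate 2 or either day 7 library, none of the 4 mitosis calls of the main test passed (highest adjusted p per gene 0.11 to 0.36). None of 24 tested regulators of the G1 phase passed (median -0.63). Ccnd2, a cyclin of that phase, was at 269 and 302 CPM and then at 371 and 351 CPM, and Cdkn1a, the inhibitor p21, at 299 and 245 CPM and then at 265 and 244 CPM.

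Many promoters of cell cycle genes carry short sequences that bind E2F factors, the NF-Y factor (the CCAAT box) and the MuvB complex (the cell cycle genes homology region, CHR). The promoters of 3 genes that fell are shown to illustrate matches of each kind, and they were chosen for holding several. Each is 300 bases of RefSeq sequence, 250 before and 50 after the annotated start on build GRCm38.p6, with matches to TTTGAA (CHR), CCAAT, and TTCCCGC or TTGGCGC (E2F) on either strand in capitals. Top2a is at chr11:99024140-99024439 on the minus strand, Pola1 at chrX:93632106-93632405 on the minus strand, and Kpna2, which encodes an importin, at chr11:106999476-106999775 on the minus strand.
Top2a: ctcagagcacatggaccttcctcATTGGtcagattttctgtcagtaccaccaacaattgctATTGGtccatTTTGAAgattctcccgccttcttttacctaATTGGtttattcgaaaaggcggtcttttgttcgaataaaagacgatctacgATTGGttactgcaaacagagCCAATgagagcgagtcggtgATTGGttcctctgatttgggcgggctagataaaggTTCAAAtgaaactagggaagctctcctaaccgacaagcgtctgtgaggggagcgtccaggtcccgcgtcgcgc
Pola1: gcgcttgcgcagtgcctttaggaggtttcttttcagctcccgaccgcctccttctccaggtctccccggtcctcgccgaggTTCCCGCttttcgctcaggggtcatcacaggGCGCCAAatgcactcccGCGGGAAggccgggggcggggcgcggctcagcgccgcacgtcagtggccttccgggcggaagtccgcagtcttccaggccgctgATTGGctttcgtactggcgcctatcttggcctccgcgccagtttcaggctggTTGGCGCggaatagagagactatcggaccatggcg
Kpna2: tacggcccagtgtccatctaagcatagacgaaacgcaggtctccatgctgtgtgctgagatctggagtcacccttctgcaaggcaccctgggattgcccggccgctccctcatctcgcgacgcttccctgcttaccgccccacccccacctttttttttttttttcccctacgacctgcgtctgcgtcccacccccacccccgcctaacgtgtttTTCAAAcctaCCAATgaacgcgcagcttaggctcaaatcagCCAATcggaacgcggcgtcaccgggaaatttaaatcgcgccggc
The Top2a sequence held 8 matches, of CHR and CCAAT letters only, that of Pola1 held 5, of E2F and CCAAT letters, and that of Kpna2 held 3, of CHR and CCAAT letters. Of the fallen genes Rrm2, Cenpe and Mad2l1, also looked at, the first pair held 1 CCAAT match each and Mad2l1 held 0. Of 64 cell cycle list genes with a promoter in the table, 43.8% held the CHR letters, 67.2% CCAAT and 40.6% an E2F motif. Among the 72 genes that fell and had a promoter the shares were 22.2%, 69.4% and 13.9%, and among the 91 that rose 14.3%, 47.3% and 7.7%. Over all 11019 tested genes with a promoter the shares were 14.7%, 42.7% and 13.5%, and over the promoters of all 27025 genes with one 20.2%, 41.1% and 7.8%. CCAAT read on the other strand, ATTGG, and TTGGCGC share letters, so that 1 stretch can match both, and a match describes the sequence only.

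Tubulin and nuclear transport genes were among those that fell. Among 17 tubulin genes tested 5 fell and none rose (median log2 fold change -0.89), a family chosen after its values were seen, as were the nuclear transport, chaperonin and tRNA synthetase families below. Tubb3 was at 97.7 and 101 CPM and then at 20.1 and 15.6 CPM, a change of -2.48 (SE 0.43, adjusted p = 0.018). The changes were -1.54 for Tubb6 (adjusted p = 0.011), -1.58 for Tuba1c (adjusted p = 0.028), -1.33 for Tuba1b (adjusted p = 0.021) and -1.06 for Tubb5 (adjusted p = 0.03), where reads shared between near-identical tubulin genes make single values uncertain. Of 24 nuclear transport genes 5 fell and none rose, and 21 had both day 7 libraries lowest (median -1). Kpna2, the importin named above, was at 519 and 602 CPM and then at 136 and 120 CPM, a change of -2.13 (SE 0.27, adjusted p = 0.0064). Ran, the GTPase that gives nuclear transport its direction, went from 602 and 886 CPM to 225 and 291 CPM, a change of -1.53 (adjusted p = 0.011). Its partner Ranbp1 and the pore proteins Nup85 and Ndc1 changed by -1.21 (adjusted p = 0.043), -1.36 (adjusted p = 0.041) and -1.77 (adjusted p = 0.032). None of these 10 calls passed without day 7 replicate 2, and the highest adjusted p per gene over the fits without 1 library was 0.062 to 0.32.

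Genes of ribosome production and protein handling gave further calls, with smaller changes than the cell cycle genes named above. Of 30 ribosome biogenesis genes 3 fell and none rose (median -0.96). Nop56, a part of the particle that modifies ribosomal RNA, was at 198 and 286 CPM and then at 114 and 93.0 CPM (-1.23, adjusted p = 0.032). Npm1, the nucleolar protein nucleophosmin, fell by 1.08 (adjusted p = 0.035) and Dkc1, which makes pseudouridine, by 1.27 (adjusted p = 0.039). With a term for Y-linked reads, 0 of these 3 passed. None of 40 ribosomal protein genes passed, although 39 had both day 7 libraries lowest (median -0.55): Rplp0 was at 2430 and 2630 CPM and then at 1660 and 2080 CPM, and their summed CPM went from 28600 and 32000 to 19200 and 23200. Of 30 proteasome genes 29 had both day 7 libraries lowest and 1, the subunit gene Psmd14, fell (302 and 299 CPM, then 122 and 135 CPM, -1.23, adjusted p = 0.019). Of 8 genes for the cytosolic chaperonin, which folds tubulin and actin, all had both day 7 libraries lowest and Cct8 fell by 1.05 (adjusted p = 0.018). Of 20 aminoacyl-tRNA synthetases Eprs and Tars fell, each by 0.98 (adjusted p = 0.032 and 0.049), and both calls were lost in 7 of the 10 fits without 1 library and in the fit of the 4 libraries alone. Of 17 heat shock chaperones Hspd1, the mitochondrial chaperonin, fell by 1.44 (adjusted p = 0.021). None of the calls of this paragraph passed without day 3 replicate 2 or without either day 7 library (highest adjusted p per gene 0.14 to 0.36).

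Of 25 lipid and cholesterol synthesis genes 4 fell and none rose (median -0.63), all 4 in the pathway from acetyl units to sterols. Fdps, which makes farnesyl diphosphate, was at 164 and 222 CPM and then at 58.8 and 69.4 CPM (-1.59, SE 0.30, adjusted p = 0.027). Mvd fell by 2.86 (adjusted p = 0.039), Idi1 by 1.65 (adjusted p = 0.039) and Hmgcs1 by 1.33 (adjusted p = 0.049). Of these 4, 1 passed with a term for Y-linked reads, and none passed without day 3 replicate 2 or day 7 replicate 2 (highest adjusted p per gene 0.20 to 0.23). No gene passed among 25 of nucleotide and one-carbon metabolism (median -0.84), 20 of glycolysis (median -0.47) or 38 nuclear genes of the respiratory chain (median -0.46). Pkm, a pyruvate kinase, was at 989 and 1240 CPM and then at 586 and 703 CPM, Ldha at 1000 and 1290 CPM and then at 592 and 847 CPM, and Atp5b at 758 and 765 CPM and then at 456 and 470 CPM.

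Some inflammatory genes fell. Of 37 cytokine and chemokine genes tested 2 fell and none rose (median -0.73). Ccl7, which attracts monocytes, was at 837 and 651 CPM at day 3 and 110 and 226 CPM at day 7, a change of -2.15 (SE 0.43, adjusted p = 0.039). Il33, an alarm cytokine of stromal cells, went from 1280 and 1010 CPM to 504 and 362 CPM, a change of -1.40 (SE 0.25, adjusted p = 0.018). Both day 3 libraries were well above both day 7 libraries in each case, and DESeq2 and limma-voom each called 8 members of the list lower. Neither passed without either day 3 library or without day 7 replicate 2 (highest adjusted p 0.15). Among 27 complement and acute phase genes Ptx3, a secreted pattern recognition protein, fell by 1.65 (186 and 114 CPM, then 50.1 and 45.2 CPM, adjusted p = 0.013), and Has1, a hyaluronan synthase, fell by 2.10 (362 and 186 CPM, then 73.3 and 54.5 CPM, adjusted p = 0.018). Their day 7 values were below those of uninjured hearts, which were 108 and 146 CPM for Ptx3 and 268 and 429 CPM for Has1. Both calls were lost without either day 7 library (highest adjusted p 0.12 and 0.16). Clu, the extracellular chaperone clusterin, rose in the same list, from 25.9 and 20.1 CPM to 127 and 122 CPM. Its change of 2.44 (SE 0.26, adjusted p = 0.0043) kept an adjusted p of at most 0.038 when any 1 library was left out. None of 35 interferon-stimulated genes passed, while 25 had both day 7 libraries lowest (median -0.76), against 23.7% of all genes tested. Among the most abundant of them, Ifitm3 was at 1460 and 1390 CPM and then at 712 and 912 CPM, Ifit3 at 609 and 438 CPM and then at 205 and 243 CPM, and Bst2 at 247 and 282 CPM and then at 184 and 225 CPM. The 4-library fit called 3 of the 35 lower and limma-voom 1.

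Aldh1a2, which makes retinoic acid and is a marker of the epicardium, was at 244 and 144 CPM at day 3 and 25.3 and 22.1 CPM at day 7, a change of -3.03 (SE 0.37, adjusted p = 0.0064). It was the only call among 11 epicardial and mesothelial markers (median log2 fold change -0.15, 6 negative and 5 positive). The summed CPM of all 12 listed markers was 254 and 191 at day 3 and 65.5 and 30.5 at day 7. Aldh1a2 alone made up most of that sum at day 3, so the sum does not show a fall of the list. Tlcd2, a membrane protein, fell by 2.77 (45.4 and 53.9 CPM, then 6.79 and 7.78 CPM, SE 0.37, adjusted p = 0.0064). Both day 7 levels of these 2 genes lay below both of uninjured hearts (58.2 and 53.3 CPM for Aldh1a2, 26.3 and 32.7 CPM for Tlcd2). Without day 7 replicate 2 their adjusted p was at most 0.062, and Tlcd2 was also lost without day 3 replicate 2.

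**Figure D2:**
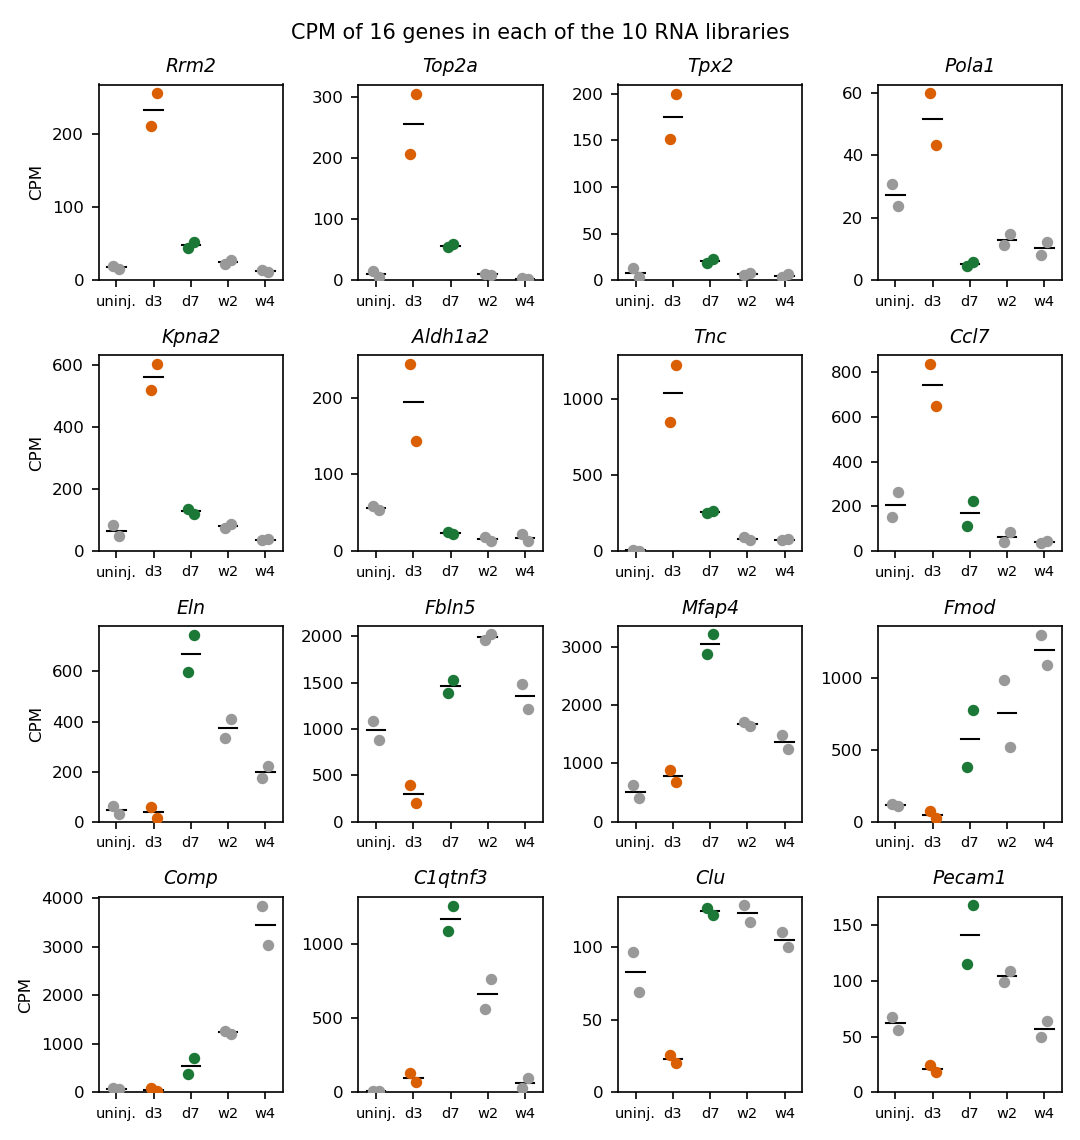
CPM (y axes, from 0) of 16 genes in each of the 10 RNA libraries, by time (x axes: uninjured, day 3, day 7, week 2, week 4), with points for libraries and bars for group means. In the upper 8 genes the 2 day 3 libraries (orange) lie above the 2 day 7 libraries (green), and in the lower 8 they lie below; Tnc did not pass the test.

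Among matrix genes, those of elastic fibres rose most often. Of 18 tested 6 rose and none fell, and 15 had both day 7 libraries above both day 3 libraries (median log2 fold change 1.08). Eln, the gene of elastin itself (build GRCm38, chromosome 5, 134702593 to 134747323), was at 59.3 and 15.7 CPM at day 3 and 597 and 745 CPM at day 7. Its change of 4.16 (SE 0.61, adjusted p = 0.018) was the largest rise among the genes named by level and size, and uninjured hearts had 61.4 and 29.2 CPM. Fbln5, which links elastin to the cell surface, went from 400 and 205 CPM to 1390 and 1530 CPM, a change of 2.27 (SE 0.29, adjusted p = 0.0064). Mfap4, a glycoprotein that helps elastic fibres assemble, went from 886 and 680 CPM to 2880 and 3220 CPM, a change of 1.96 (SE 0.25, adjusted p = 0.0064). Ltbp3 and Ltbp2, proteins of the latent TGF-beta binding family, rose by 1.40 (adjusted p = 0.038) and 1.46 (adjusted p = 0.039), and Fbln1 by 1.51 (198 and 91.2 CPM, then 490 and 332 CPM, adjusted p = 0.047). None of the 6 passed without day 7 replicate 2, 2 passed without day 3 replicate 2, and 3 passed with a term for Y-linked reads, with highest adjusted p per gene of 0.062 to 0.31 when 1 library was left out.

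The abundant collagens were higher at day 7 in level but did not pass in edgeR. Col1a1 was at 5890 and 3980 CPM at day 3 and 8750 and 16600 CPM at day 7 (log2 fold change 1.36, SE 0.41, adjusted p = 0.14), and the day 7 libraries differed from each other about as much as the times did. Col1a2 was at 5480 and 4960 CPM and then at 7710 and 9490 CPM (0.72, adjusted p = 0.21), and Col3a1 at 8900 and 5760 CPM and then at 9670 and 12100 CPM (0.57, adjusted p = 0.49). DESeq2 called Col1a1 higher (adjusted p = 0.0089) and limma-voom did not (adjusted p = 0.099). Neither tool called Col1a2 or Col3a1. Of 11 fibrillar collagen genes 8 had both day 7 libraries highest (median 0.72) and 1 rose: Col11a1, a minor fibrillar chain that sets fibril width, went from 47.4 and 34.2 CPM to 265 and 279 CPM, a change of 2.74 (SE 0.48, adjusted p = 0.025). Of 21 other collagens 2 rose. Col8a2, a short-chain collagen, was at 6.59 and 4.21 CPM and then at 50 and 64.9 CPM, a change of 3.41 (SE 0.50, adjusted p = 0.0082), and Col14a1, which binds to fibril surfaces, rose by 1.13 (adjusted p = 0.043). The basement membrane chains Col4a1 and Col4a2, which share a promoter region and are made by fibroblasts and endothelial cells alike, rose by 1.65 (85.2 and 75.4 CPM, then 163 and 342 CPM, adjusted p = 0.04) and 1.63 (adjusted p = 0.029), the only calls among 20 basement membrane genes. Endothelial markers moved in the same direction in the same libraries (below), and their part in this result was not tested. None of these 5 calls passed without day 3 replicate 2 or day 7 replicate 2 (highest adjusted p per gene 0.11 to 0.33).

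Of 28 matrix glycoproteins 2 rose, Mfap4 and Thbs2, and none fell (median 0.65). Thbs2, which encodes thrombospondin 2, went from 723 and 586 CPM to 1730 and 1540 CPM, a change of 1.32 (SE 0.29, adjusted p = 0.043), and it was lost in 8 of the 10 fits without 1 library (highest adjusted p = 0.34). Postn, the periostin gene used as a mark of activated fibroblasts, was already at 8280 and 7630 CPM at day 3 and was at 11800 and 12900 CPM at day 7 (0.64, SE 0.30, adjusted p = 0.34). Fn1, fibronectin, was at 1290 and 1550 CPM and then at 2550 and 2890 CPM (0.94, SE 0.22, adjusted p = 0.065), with no overlap between the times. Tnc, tenascin C, had the opposite order, at 851 and 1230 CPM and then 247 and 265 CPM (-2.02, SE 0.48, adjusted p = 0.084), as did Spp1, osteopontin, at 1000 and 1690 CPM and then 579 and 670 CPM (-1.11, adjusted p = 0.077). DESeq2 and limma-voom called Fn1 higher (adjusted p = 0.0014 and 0.012) and Tnc lower (adjusted p = 0.00034 and 0.00024). They also called Spp1 lower (adjusted p = 0.0068 and 0.022), and neither called Postn (adjusted p = 0.18 and 0.17). In the whole list DESeq2 called 9 genes higher and 3 lower, and limma-voom 8 higher and 2 lower. Cthrc1, a secreted protein of scar fibroblasts, was at 1320 and 1640 CPM and then at 2700 and 2890 CPM (0.91, adjusted p = 0.12), against 15.5 and 10.2 CPM in uninjured hearts. DESeq2 and limma-voom called Cthrc1 higher (adjusted p = 0.023 and 0.026). Of the 28 matrix glycoproteins 22 had positive and 6 negative log2 fold changes. Both day 7 libraries were highest for 15 and lowest for 4, where the shares over all genes tested were 21% and 23.7%.

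Of 26 genes known from cartilage and tendon 3 rose and none fell (median 1.58). Both day 7 libraries were highest for 15 of them, and 4 had negative log2 fold changes. Fmod, fibromodulin, which regulates collagen fibril growth and was also the only call among 14 small leucine-rich proteoglycans, went from 72.1 and 26.3 CPM to 382 and 777 CPM, a change of 3.56 (SE 0.53, adjusted p = 0.017). Comp, cartilage oligomeric matrix protein, went from 85.2 and 23.1 CPM to 378 and 702 CPM, a change of 3.32 (SE 0.56, adjusted p = 0.027). Tnmd, tenomodulin, a membrane protein of tendon cells, went from 2.85 and 1.39 CPM to 25.7 and 21.1 CPM, a change of 3.47 (SE 0.66, adjusted p = 0.028). Chad, chondroadherin, was at 7.72 and 0.222 CPM and then at 7.78 and 39.6 CPM, so the lower day 7 library was level with the higher day 3 library and the gene did not pass (adjusted p = 0.39). Cilp2 had no counts in either day 3 library and 1.28 and 7.42 CPM at day 7 (adjusted p = 0.18). The mean of its 2 day 7 libraries was 25.3-fold above a floor of 3 counts per library. Its relative Cilp was at 576 and 421 CPM and then at 464 and 969 CPM (0.52, adjusted p = 0.74). Day 7 was no maximum for this group: Comp reached 3840 and 3040 CPM at week 4, and the summed CPM of the list went from 1720 and 1050 at day 3 to 2390 and 3420 at day 7 and 8800 and 7490 at week 4. None of the 3 passed without day 7 replicate 2, Fmod and Tnmd did not pass without day 3 replicate 2, and Comp did not pass without week 2 replicate 1 (highest adjusted p per gene 0.10 to 0.25). In the fit of the 4 libraries alone 1 of the 3 passed, with adjusted p = 0.14 for Comp, 0.056 for Fmod and 0.019 for Tnmd, and limma-voom did not call Tnmd (adjusted p = 0.19).

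Among the genes of collagen processing, secretion, contraction and the resident fibroblast state 1 was called. None of 33 genes for collagen processing and crosslinking passed (median -0.05): Serpinh1, the collagen chaperone, was at 5800 and 7000 CPM and then at 5420 and 6750 CPM, and Lox, lysyl oxidase, at 792 and 836 CPM and then at 1590 and 1060 CPM (0.70, adjusted p = 0.25). None of 34 genes for folding and secretion in the endoplasmic reticulum passed (median -0.54), and 22 had both day 7 libraries lowest. Hspa5, the main chaperone there, was at 4400 and 4940 CPM and then at 2580 and 2320 CPM (-0.93, adjusted p = 0.088). None of 28 contractile and myofibroblast genes passed (median 0.01), with Acta2, smooth muscle actin, at 972 and 1280 CPM and then at 642 and 950 CPM (-0.50, adjusted p = 0.63). Of 35 genes typical of resident fibroblasts Gpc3, a cell surface proteoglycan, was the only call, rising from 8.25 and 5.27 CPM to 46.3 and 24.3 CPM (2.39, SE 0.36, adjusted p = 0.011). It did not pass without day 3 replicate 2 (adjusted p = 0.11). The summed CPM of that list was 15400 and 7940 at day 3 and 16100 and 12600 at day 7, overlapping, against 57700 and 59600 in uninjured hearts. Of 28 mesenchymal transcription factors none passed: Runx1 was at 72.8 and 69.6 CPM and then at 79.0 and 84.4 CPM, and Meox1 at 358 and 421 CPM and then at 300 and 345 CPM. The summed level of the resident list was thus below that of uninjured hearts at both times.

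**Figure D3:**
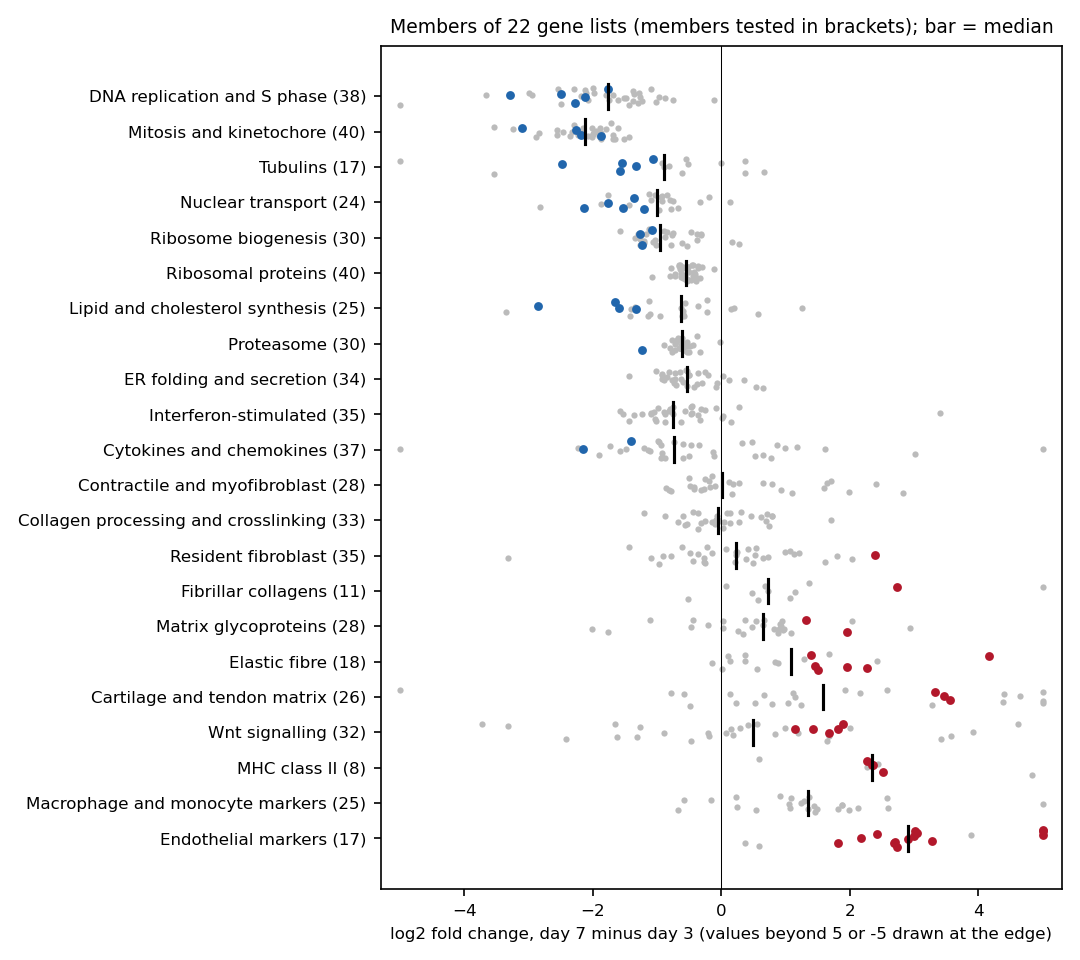
Log2 fold change at day 7 against day 3 (x axis) of each tested member of 22 gene lists (rows, with the number tested), red where a gene rose, blue where it fell and grey where it did not pass; black bars are medians. The cell cycle lists lie wholly left of 0 with medians of -1.76 and -2.12, and the endothelial list wholly right of 0 with a median of 2.90.

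In Wnt signalling secreted ligands act through Frizzled receptors, and secreted or intracellular inhibitors limit them. Of 32 Wnt genes 5 rose and none fell (median 0.49), and the 5 belong to families that hold inhibitors of the pathway. What each does in these cells was not tested. Other such secreted members of the list include Wif1, Sfrp4 and Dkk2, which did not pass, with log2 fold changes of -3.32, -1.66 and -1.62. Sfrp2, a secreted Frizzled-related protein, went from 793 and 472 CPM to 2050 and 2000 CPM, a change of 1.68 (SE 0.31, adjusted p = 0.021). Dkk3, of the Dickkopf family, went from 177 and 125 CPM to 486 and 579 CPM, a change of 1.82 (SE 0.25, adjusted p = 0.0073). Sfrp1 and Frzb, further Frizzled-related proteins, rose by 1.42 (adjusted p = 0.021) and 1.14 (adjusted p = 0.019), and Nkd2, an inhibitor inside the cell, by 1.89 (35.4 and 30.6 CPM, then 131 and 114 CPM, adjusted p = 0.0073). In uninjured hearts Sfrp2 was at 84.4 and 132 CPM, below day 3, whereas Dkk3 was at 489 and 439 CPM, above it. Of 36 TGF-beta and BMP signalling genes Tgfb3, a ligand, was the only call, from 178 and 117 CPM to 521 and 593 CPM (1.92, SE 0.33, adjusted p = 0.017). None of 32 growth factor ligands and receptors and none of 37 matrix proteases and inhibitors passed, with medians of 0.56 and 0.19. Timp3, a protease inhibitor, was at 823 and 361 CPM and then at 1780 and 1330 CPM (adjusted p = 0.061). Among 20 hypoxia-inducible genes Stc2 rose by 2.35 (adjusted p = 0.017). None of the 28 AP-1 and immediate-early genes passed, with Fos at 4230 and 2600 CPM and then at 4500 and 6240 CPM. None of the 5 Wnt calls, nor that of Tgfb3, passed without day 3 replicate 2 or day 7 replicate 2 (highest adjusted p per gene 0.11 to 0.23).

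C1qtnf3, which encodes a secreted protein of the complement C1q and TNF-related family, was among the largest rises, from 129 and 70.5 CPM to 1090 and 1260 CPM (3.56, SE 0.54, adjusted p = 0.018). Its levels were 8.69 and 6.59 CPM in uninjured hearts, 566 and 764 CPM at week 2 and 28.0 and 96.6 CPM at week 4, so its day 7 libraries were the highest of all 10. It was lost without day 3 replicate 2 or either day 7 library (highest adjusted p = 0.15). Rflnb, a binding partner of filamin, rose by 2.76 (73.3 and 28.7 CPM, then 343 and 349 CPM, adjusted p = 0.0073), and Zfp185, a cytoskeletal LIM domain protein, by 2.86 (8.49 and 3.99 CPM, then 52.6 and 38.0 CPM, adjusted p = 0.031).

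Genes of antigen presentation on MHC class II, by which professional immune cells show peptides to T cells, were among those that rose. Of 17 antigen presentation genes 5 rose and none fell. H2-Eb1 went from 15.4 and 22.6 CPM to 97.9 and 120 CPM, a change of 2.52 (SE 0.35, adjusted p = 0.0073). H2-Ab1 rose by 2.34 (33.5 and 65.7 CPM, then 225 and 277 CPM, adjusted p = 0.011), the invariant chain Cd74 by 2.27 (97.4 and 234 CPM, then 679 and 913 CPM, adjusted p = 0.035) and H2-Aa by 2.36 (adjusted p = 0.047). H2-D1, a class I gene carried by most cells, rose by 0.91 (adjusted p = 0.039), and reads shared within the H2 family make single values uncertain. The summed CPM of 10 class II genes, 8 of them tested, was 172 and 386 at day 3 and 1170 and 1540 at day 7. This family was chosen after its values were seen. Markers of macrophages moved with the class II genes: of 25 none passed, but 18 had both day 7 libraries highest (median 1.35). The summed CPM of these markers was 1010 and 1630 at day 3 and 2620 and 4330 at day 7, against 97.5 and 105 in uninjured hearts. Csf1r, a defining receptor of macrophages, was at 4.21 and 20.8 CPM and then at 51.0 and 99.1 CPM (adjusted p = 0.33), Adgre1 at 14.5 and 58.5 CPM and then at 77.0 and 101 CPM, and Cd68 at 75.3 and 109 CPM and then at 112 and 105 CPM. The fit of the 4 libraries alone called 7 of the 25 markers higher, DESeq2 6 and limma-voom 9. The part of such cells in the class II result was not tested. Of 25 genes of lysosomes and phagocytosis Apoe, a lipid carrier, rose from 702 and 508 CPM to 2030 and 2310 CPM (1.84, SE 0.25, adjusted p = 0.0073) and Mfge8, which tags dying cells, by 1.36 (adjusted p = 0.021). Apoe was higher still in uninjured hearts, at 3430 and 5100 CPM. The part of macrophages in the rise of Apoe from day 3 to day 7 was not tested. None of the antigen presentation calls passed without day 7 replicate 2 (highest adjusted p per gene 0.064 to 0.30), and 3 of the 5 passed with a term for Y-linked reads.

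Markers of endothelial cells, which line blood vessels, were called more often than any other list examined, although the sort gate was set on the fibroblast lineage. Of 17 tested 14 rose and none fell, and 16 had both day 7 libraries highest (median 2.90). Pecam1, a junction protein of endothelium (build GRCm38, chromosome 11, 106654217 to 106750628), was at 24.6 and 18.1 CPM and then at 115 and 168 CPM. Its change of 2.73 (SE 0.29, adjusted p = 0.0043) kept an adjusted p of at most 0.041 without any 1 library. Cdh5, the endothelial cadherin, went from 5.16 and 4.16 CPM to 42.4 and 47.8 CPM, a change of 3.27 (SE 0.50, adjusted p = 0.011). Erg, a transcription factor of endothelium, went from 1.01 and 0.887 CPM to 25.2 and 45.9 CPM, a change of 5.22 (SE 0.64, adjusted p = 0.0064). Further members were the VEGF receptor genes Flt1 and Kdr (3.01 and 3.05, adjusted p = 0.017 and 0.027) and Cldn5, of tight junctions (2.99, adjusted p = 0.018). Esam, a junction protein in the list, rose by 2.90 (adjusted p = 0.018). Outside the list, Aplnr, the apelin receptor, rose by 4.06 (4.69 and 6.60 CPM, then 79.3 and 110 CPM, adjusted p = 0.0064), and Plvap, Mmrn2 and Adgrl4, which are known from blood vessels, by 2.85, 2.85 and 2.81 (adjusted p = 0.0082, 0.027 and 0.017). So 5 of the 12 largest rises named by level and size are known from endothelium. The summed CPM of the 17 markers was 484 and 359 at day 3, 1210 and 1600 at day 7, and 953 and 815 in uninjured hearts. The members did not share 1 course relative to uninjured hearts. Tek had 5427 and 4140 unscaled counts in uninjured hearts, 1632 and 1180 at day 3 and 2345 and 1528 at day 7. Erg was at only 0.373 and 1.18 CPM in uninjured hearts. Without day 3 replicate 2 or day 7 replicate 2, 2 and 1 of the 14 calls passed, and all 14 passed with a term for Y-linked reads. Whether endothelial cells in the sorted samples or the labelled cells themselves carried this RNA was not tested.

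None of 16 pericyte and smooth muscle markers passed, although 12 had both day 7 libraries highest (median 1.70): Rgs5 was at 106 and 35.9 CPM and then at 469 and 662 CPM (adjusted p = 0.12), and Myh11 at 6.35 and 0.0554 CPM and then at 14.6 and 19.4 CPM. Ncam1 was the only call among 6 Schwann and neural markers (1.38, adjusted p = 0.042), while the defining marker Sox10 had no counts in any of the 4 libraries. No call was made among 7 neutrophil, 5 lymphocyte, 7 dendritic and mast cell, 19 cardiomyocyte or 6 erythroid markers. S100a8 did not exceed 4.94 CPM and Myh6 did not exceed 5.88 CPM in these libraries, and Cd3e had no counts, while Tnnt2, of heart muscle, reached 40.7 CPM in day 7 replicate 2. Erythroid markers were uneven, with a summed CPM of 1230 and 168 at day 3 and 837 and 1190 at day 7, and Hbb-bs, a haemoglobin gene, was at 443 and 51.9 CPM and then at 294 and 440 CPM. The summed CPM of lymphocyte markers was 4.81 and 14.7 at day 3 and 42.5 and 41.5 at day 7.

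The levels at the other times place the 2 groups of genes on a longer course, as a description, since the genes were chosen by their day 3 and day 7 levels. Of the 83 genes that fell, 76 had a higher mean at day 3 than in uninjured hearts, and 73 had their highest mean of all 5 groups at day 3. At day 7 the mean of 34 of them was still above that of uninjured hearts. The summed CPM of the mitosis list was 279 and 68.7 in uninjured hearts, 3500 and 4330 at day 3, 795 and 987 at day 7, 180 and 199 at week 2 and 128 and 124 at week 4. For the S phase list it was 529 and 581, 2800 and 2980, 877 and 932, 518 and 575, and 598 and 580 at the same times. Both lists were thus above all uninjured libraries at day 7 as well. Of the 123 genes that rose, 95 had their lowest mean at day 3, below uninjured hearts, and 26 had their lowest in uninjured hearts. The highest mean was at day 7 for 55 of them, at week 4 for 35, at week 2 for 29 and in uninjured hearts for 4. Elastin and C1qtnf3 are of the first kind, and Comp and Fmod of the second. Fbln5 and Clu were above day 3 in uninjured hearts, at 1090 and 885 CPM and at 96.5 and 68.8 CPM.

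**Figure D4:**
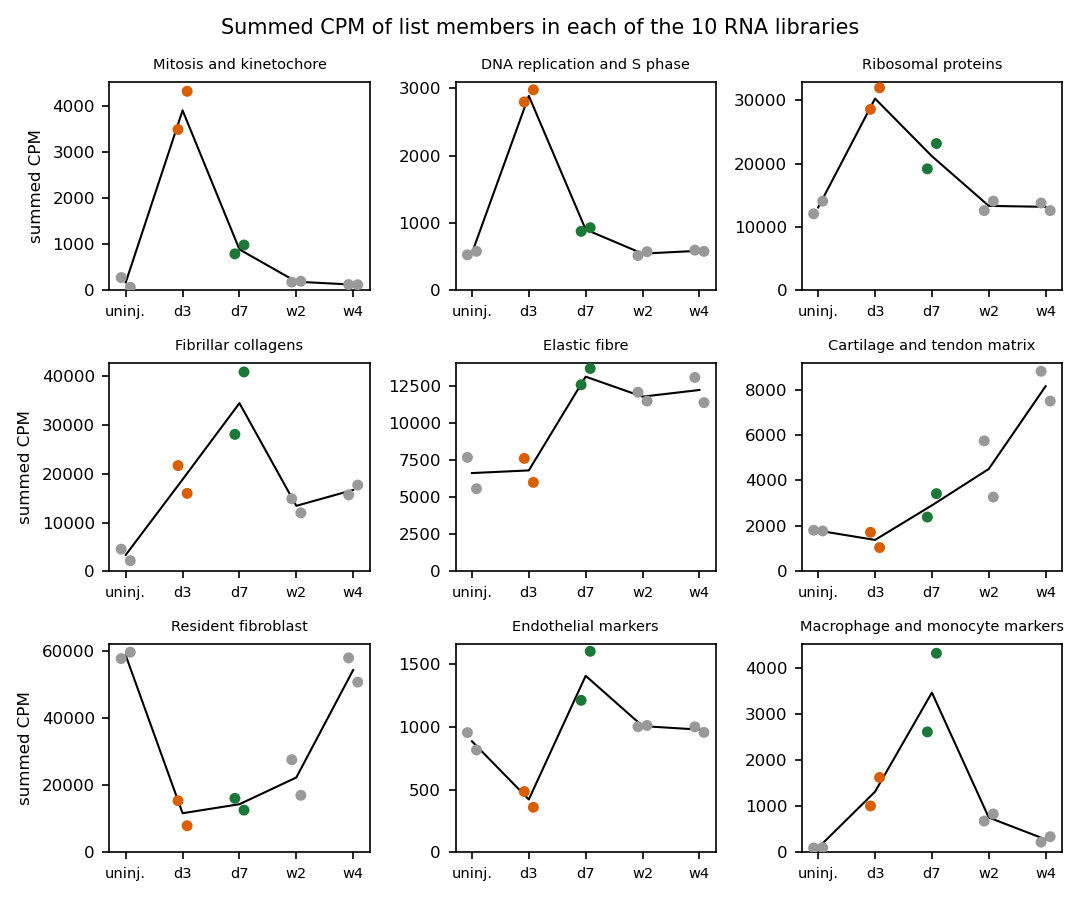
Summed CPM (y axes, from 0) of the members of 9 gene lists in each of the 10 RNA libraries by time (x axes), with points for libraries and lines through group means. The cell cycle and ribosomal protein lists are highest at day 3, the fibrillar collagen, macrophage and endothelial lists at day 7, and the cartilage and tendon list at week 4.

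ATAC-seq, which cuts and tags open chromatin with the Tn5 transposase, was done on cells sorted in the same way, with 2 libraries each at day 3 (105738 and 107832 peaks) and day 7 (93781 and 88397 peaks). Most known starts of the changed genes had a peak within 1 kb at both times, as did most of those of all genes tested. A peak within 1 kb of the start was present in both libraries for 72 of 72 fallen genes with a known start at day 3 (100%) and for 71 at day 7 (98.6%). For 91 risen genes the numbers were 80 (87.9%) and 82 (90.1%), and for all 11019 tested genes 93.0% and 91.5%. The authors' fold enrichment of the highest peak was lower in both day 7 libraries than in both day 3 libraries for most genes. These were 8006 of the 11019 genes, 59 of the 72 fallen and 54 of the 91 risen genes. Whether the scale of the peak lists or the chromatin differed was not tested, so peak heights are given as values only. Fold enrichment was higher in both day 7 libraries for 236 genes, 4 of them risen and 0 of them fallen. Erg was among the 4, at 16.8 and 16.5 at day 3 and 22.3 and 22.1 at day 7, and Has1, which fell in RNA, went from 25.7 and 23.7 to 12.4 and 6.46. These 2 genes were singled out after their values were seen.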

How the data were processed

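RNA-seq of 10 libraries (5 groups of 2) and ATAC-seq peak lists of day 3 and day 7 were used, with groups read from the labels. Per Ensembl gene (GRCm38 coordinates), the deposited values are expected counts, estimated by the authors and not scaled between libraries. The submitters' processing notes list Trim Galore 0.6, STAR 2.5.3a, DESeq2, Bowtie2 2.3, MACS2, mm10 and GRCm38. Which program made the estimates, and on which strand, is not given in the sources used here. In the deposited peak lists, called per library, each peak has a fold enrichment (a ratio) and a −log10 q, both the authors' values.

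The rounded counts were fitted with edgeR 4.0.16 under R 4.3.3: TMM scaling, filterByExpr, and a robust quasi-likelihood model with a mean per group over the 10 libraries, leaving 5 residual degrees of freedom. Benjamini-Hochberg adjustment at 0.05 was made over all 14968 genes tested of 25746. Alternatives were RLE scaling, no filter, a minimum of 50 counts in 2 libraries, DESeq2 1.42.0, limma-voom (limma 3.58.1), the 4 libraries alone, each library left out, a replicate block and a term for Y-linked reads. The edgeR step was tested on simulated data. CPM are scaled by TMM, and SE is that of the log2 fold change. The labels name no animals, so a p-value here refers to the spread between libraries, which may in part be technical. Amplified reads carry no molecular identifiers here and are not independent molecules, hence floors cover counting error only.

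The comparison and the 45 gene lists were chosen with earlier results of these data known, and the 5 families added later were chosen after their values were seen, so lists are described by counts and medians beside those of all genes. Genes were named by 3 rules. The 12 largest rises and 12 largest falls were taken among called genes with a mean log2 CPM of at least 4 and libraries that do not overlap, leaving out predicted, mitochondrial and ribosomal protein genes. Up to 4 called members of each list were named, or up to 3 abundant ones where none was called, and genes such as Postn, Col1a1, Mki67 and Acta2 were reported whatever their result. Other members are named to complete a count. Promoters are RefSeq sequences of GRCm38.p6. Peaks and promoters were read with Python 3.11.15 and pandas 2.3.3.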

Additional observations from a re-analysis of the deposited data

How the results depend on the processing

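A limit of the comparison is that each time had 2 libraries, which did not come from the same animals. All 206 calls kept their direction in the 18 alternative fits. Beside 206 calls (123 higher, 83 lower), the count was 814 (479 and 335) with no filter on low counts. It was 974 (515 and 459) with DESeq2, also without that filter, 419 (254 lower) with limma-voom and 327 (165 lower) with the 4 libraries alone. With a term for Y-linked reads 50 genes fell. Without 1 library, calls ranged from 3 to 332, higher genes from 3 to 261 and lower genes from 0 to 122. The fit without day 7 replicate 2 gave 0 lower genes in edgeR. A replicate block gave 208 calls (129 higher, 79 lower). Deviations of same-numbered libraries at day 3 and day 7 correlated at 0.013. With 2 libraries per group this cannot tell whether a number marks a shared litter or day, which the labels do not state. RLE scaling (205 calls) and the stricter filter (196) moved the count little. The causes of these differences were not tested. With 1 library of a time left out, the lone library is assumed to vary like the other groups.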

Other observations

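Beyond the lists, 77 of the 123 genes that rose and 47 of the 83 that fell belonged to none of the 45 lists or 5 families. The genes named here were chosen after their values were seen. Among those that fell were factors of chromatin and cell division. Hmgb2, a chromatin protein, was at 227 and 283 CPM at day 3 and 80.3 and 87.2 CPM at day 7 (edgeR log2 fold change -1.61, adjusted p = 0.0082), and H2afz, a variant histone with related copies in the genome, at 1170 and 1400 CPM and then at 489 and 535 CPM (-1.33, adjusted p = 0.017). Cks2 and Cks1b, small partners of cyclin-dependent kinases, changed by -2.01 and -1.67 (adjusted p = 0.021 and 0.027), and Tacc3, a spindle protein, by -2.04 (adjusted p = 0.039). Bcat1, which breaks down branched-chain amino acids, fell by 2.03 (172 and 252 CPM, then 65.4 and 38.5 CPM, adjusted p = 0.018). The translation factors Eif5a and Eif4e changed by -1.10 and -0.98 (adjusted p = 0.019 and 0.039). Uap1 and Ugdh, which make sugar nucleotides used for hyaluronan, changed by -1.16 and -1.03 (adjusted p = 0.035 and 0.034). Lgi4 had no counts in either day 7 library, and its day 3 mean was 22.6-fold above a floor of 3 counts per library.

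Among the genes that rose were Cd200, a surface protein that restrains myeloid cells (112 and 117 CPM, then 369 and 498 CPM, log2 fold change 1.92, adjusted p = 0.0064), and Nox4, an oxidase that makes hydrogen peroxide (36.6 and 44.5 CPM, then 119 and 125 CPM, 1.58, adjusted p = 0.017). Mdk, the growth factor midkine, rose by 1.52 (adjusted p = 0.017). Cst3, the protease inhibitor cystatin C, went from 1490 and 839 CPM to 2950 and 3880 CPM (1.55, adjusted p = 0.018). Itgbl1, an integrin-like secreted protein, went from 322 and 112 CPM to 915 and 789 CPM (1.97, adjusted p = 0.027). Pamr1 and Fxyd6 rose by 1.44 and 1.70 (adjusted p = 0.018 and 0.011). Adgrg1, an adhesion receptor, had no counts in either day 3 library, and its day 7 mean was 127-fold above the same floor. Gja4, Gpihbp1 and Clec14a, which are known from blood vessels, rose as well, by 2.38, 2.47 and 2.02 (adjusted p = 0.029, 0.028 and 0.036). Endothelial markers rose in the same libraries, and their part in these rises was not tested.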
